A study of Rattus norvegicus with 138 samples.

Results

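The genes described here are 9 that build the perineuronal net, the lattice of extracellular matrix that wraps the cell body and proximal dendrites of many neurons. They were chosen by symbol and are 9 of the 32883 genes in each table: the proteoglycans Acan (aggrecan), Bcan (brevican), Ncan (neurocan) and Vcan (versican), the link proteins Hapln1, Hapln2 and Hapln4, the cross-linking glycoprotein Tnr (tenascin-R) and the hyaluronan synthase Has3. All 9 passed the filter on low expression in all 3 regions. They were measured by RNA-seq in tissue punches of the nucleus of the solitary tract (NTS), the caudal ventrolateral medulla (CVLM) and the rostral ventrolateral medulla (RVLM), brainstem nuclei that control blood pressure. The rats were female Wistar Kyoto rats (WKY, substrain WKY/NHsd), the normotensive control, and female spontaneously hypertensive rats (SHR, substrain SHR/NHsd), an inbred strain whose blood pressure rises with age. WKY rats numbered 5 at 8 wk of age, 4 at 10 wk and 3 each at 12, 16 and 24 wk, and SHRs 5 each at 8 and 10 wk and 6 each at the later ages, which makes 18 WKY rats and 28 SHRs. Each of the 46 rats gave 1 library per region from its own bilateral punches, 138 libraries in all, so that a replicate is 1 rat and nothing was pooled.

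A perineuronal net hangs on hyaluronan, a long sugar chain that hyaluronan synthases spin out at the cell surface. Proteoglycans of the lectican family, which carry chondroitin sulfate chains, bind hyaluronan at one end, link proteins lock that bond, and tenascin-R ties the other ends of the lecticans together. Nets are best known around fast-spiking parvalbumin neurons and around large neurons of the brainstem, where they limit structural plasticity, and related matrix sits at the nodes of Ranvier of myelinated axons.

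The libraries held between 5904581 and 17889417 expected counts, with a median of 10143036. The punches carried Th, which marks the catecholamine neurons of these nuclei, at median levels of 50.7 in the RVLM, 136.6 in the CVLM and 147.7 in the NTS in CPM, counts scaled to the library size. In 8 libraries the median rank correlation with the other libraries of the region lay more than 3 median absolute deviations below that of the region. These were 1 SHR of 8 wk, 1 WKY rat of 12 wk and 2 WKY rats of 24 wk in the NTS, 1 SHR of 8 wk and 1 WKY rat of 12 wk in the CVLM, and 1 WKY rat of 8 wk and 1 of 24 wk in the RVLM. In the NTS, all 4 lay below the other 42 libraries for Bcan (116 to 160 against 188 to 387 CPM), Hapln2 (3.70 to 15.2 against 23.0 to 145) and Hapln4 (39.8 to 55.1 against 77.3 to 285). Calls and correlations that were lost without these libraries, or without the rats that gave them, are therefore named as such. Library names end in the number 1 or 2, whose meaning is not given in the sources used here. Number 2 held every 10 wk rat, 3 of 5 WKY rats of 8 wk and 1 of 6 SHRs each at 12 and 24 wk, so that only these 5 rats outside 10 wk separate age and number. In bulk tissue, fewer cells of a type and less RNA per cell cannot be told apart.

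The lecticans and link proteins lie in pairs in the rat genome. In the RefSeq annotation of GRCr8, Bcan is the coding gene next to Hapln2, Ncan that next to Hapln4, Vcan that next to Hapln1, and Acan that next to Hapln3, a link protein gene that is not among the 9. The tables were counted on another build (rn6), so no coordinates of the counted gene models are given. Promoter windows of 300 bases, 250 before and 50 after the start of the gene, were at hand for 8 of the 9 genes, Has3 being without one. Those of Bcan, Hapln2 and Hapln4 are shown because these genes varied together from rat to rat, as described further on, and that of Hapln1 because it differed most between regions. They are from RefSeq, GRCr8, and run 5′ to 3′ on the gene's own strand, with capitals marking the GC box GGGCGG or its reverse complement CCGCCC.
Bcan (chr2:175765265-175765564, minus strand): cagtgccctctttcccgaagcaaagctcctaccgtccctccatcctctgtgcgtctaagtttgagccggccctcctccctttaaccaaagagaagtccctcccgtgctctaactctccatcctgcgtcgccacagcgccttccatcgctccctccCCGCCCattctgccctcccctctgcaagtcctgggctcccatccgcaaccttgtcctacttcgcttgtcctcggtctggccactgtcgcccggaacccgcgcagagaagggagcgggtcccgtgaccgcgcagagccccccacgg
Hapln2 (chr2:175794389-175794688, minus strand): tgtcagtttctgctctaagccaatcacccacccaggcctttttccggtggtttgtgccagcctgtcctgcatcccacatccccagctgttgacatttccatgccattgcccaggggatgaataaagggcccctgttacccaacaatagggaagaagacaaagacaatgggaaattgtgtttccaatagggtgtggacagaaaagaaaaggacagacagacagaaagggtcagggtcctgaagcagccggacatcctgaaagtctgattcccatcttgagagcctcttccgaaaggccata
Hapln4 (chr16:19375124-19375423, minus strand): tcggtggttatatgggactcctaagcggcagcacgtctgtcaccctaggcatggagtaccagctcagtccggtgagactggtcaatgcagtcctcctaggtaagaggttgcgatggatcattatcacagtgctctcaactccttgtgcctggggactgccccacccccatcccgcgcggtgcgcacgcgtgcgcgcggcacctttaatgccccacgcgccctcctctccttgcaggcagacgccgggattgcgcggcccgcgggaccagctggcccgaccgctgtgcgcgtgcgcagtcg
Hapln1 (chr2:22366717-22367016, plus strand): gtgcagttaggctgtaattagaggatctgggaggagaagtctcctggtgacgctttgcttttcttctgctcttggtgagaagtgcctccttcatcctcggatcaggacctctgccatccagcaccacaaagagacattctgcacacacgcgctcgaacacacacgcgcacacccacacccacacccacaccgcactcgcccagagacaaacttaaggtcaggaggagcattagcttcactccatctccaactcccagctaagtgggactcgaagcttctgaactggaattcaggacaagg
The GC content of the windows was 64.0% for Bcan, 64.7% for Hapln4, 50.3% for Hapln2 and 53.7% for Hapln1. The other genes had 73.0% (Acan), 61.7% (Ncan), 61.0% and 60.0% (Vcan) and 38.3% (Tnr). The median over 33465 windows was 51.7%. Whether GC content goes with the variation between rats was not tested. A GC box stood in the windows of 4 of the 8 genes, the lecticans Acan, Bcan, Ncan and Vcan, and in those of no link protein. It was present in 33.1% of all windows. The letters TATAAA or TTTATA stood in the window of Ncan alone (14.2% of all windows), and ACAAAG or CTTTGT, the core letters that SOX factors bind, in those of Ncan, Hapln1 and Hapln2 (18.8% of all windows). In the window of Ncan, the only one with more than 1 of these motifs, they did not overlap. A match is a description of the window and does not show binding.

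Hapln1, the link protein that stabilizes the bond between lecticans and hyaluronan, showed the largest difference between regions among the 9 genes. In WKY rats it ranged in the CVLM from 23.0 to 91.3 CPM around a median of 54.3, in the NTS from 5.38 to 42.3 around 11.8, and in the RVLM from 5.25 to 18.3 around 9.35. In SHRs it ranged in the CVLM from 26.0 to 88.1 CPM around 52.6, in the NTS from 6.01 to 35.3 around 18.3, and in the RVLM from 5.89 to 25.2 around 11.8. The CVLM and RVLM did not overlap within either strain, whereas the NTS overlapped both. Within a rat, the CVLM was above both other regions in 46 of 46 rats, and the ratio of CVLM to RVLM had a median of 4.51 and ran from 1.87 to 11.02. The log2 fold change of CVLM over RVLM, as the mean over ages with the rat as a block, was 2.35 (SE 0.15, adjusted p 3.2e-23, edgeR) in WKY and 2.0 (SE 0.11, adjusted p 2.2e-26) in SHR. NTS lay below CVLM by -1.97 (SE 0.15, adjusted p 7.3e-20) in WKY and -1.68 (SE 0.11, adjusted p 1.3e-22) in SHR on the same scale. Both contrasts held in all 13 alternatives in both strains. The small excess of NTS over RVLM, 0.38 (SE 0.17, adjusted p 0.0415) in WKY and 0.32 (SE 0.12, adjusted p 0.0186) in SHR, was lost in 8 and 2 of 13 alternatives, among them the fit without rats that had a library standing apart. Single rats were left out in limma voom, which did not call the WKY value with all rats (0.35, adjusted p 0.0867) or in 44 of 46 such fits (largest adjusted p 0.179).

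Among the lecticans, Acan and Bcan were lower in the NTS than in either ventrolateral region. Acan, the lectican most closely tied to nets in the adult brain, ran in WKY rats from 1.13 to 3.54 CPM (median 2.36) in the NTS, from 2.22 to 6.28 (median 3.98) in the CVLM and from 2.11 to 6.46 (median 4.53) in the RVLM. SHRs gave 0.970 to 3.48 CPM (median 2.48), 1.25 to 6.33 (median 3.48) and 2.0 to 7.0 (median 4.21) in the same order. The ranges overlapped, but within a rat Acan was lower in the NTS than in the RVLM in 42 of 46 and lower than in the CVLM in 37 of 46. The log2 fold change of NTS over RVLM was -1.15 (SE 0.16, adjusted p 1.5e-09) in WKY and -1.01 (SE 0.12, adjusted p 1.3e-11) in SHR, and that of NTS over CVLM was -0.99 (adjusted p 2.2e-07) and -0.68 (adjusted p 3.5e-06). Acan rested on few reads, between 10 and 93 per library. CVLM was below RVLM in SHR (-0.33, SE 0.11, adjusted p 0.0132). That call was lost in 4 of 13 alternatives, among them the fit without rats that had a library standing apart. The WKY value was -0.17 (SE 0.14, adjusted p 0.387).

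Bcan, a lectican made by glia and neurons that also sits at nodes of Ranvier, ran in WKY rats from 131 to 319 CPM (median 276) in the NTS, from 164 to 425 (median 370) in the CVLM and from 102 to 488 (median 423) in the RVLM. SHRs gave 116 to 387 CPM (median 275), 114 to 474 (median 319) and 187 to 524 (median 377). The order NTS, CVLM, RVLM held for the medians of both strains, with overlapping ranges. NTS was lower than RVLM in 42 of 46 rats and lower than CVLM in 40 of 46. On the log2 scale NTS lay below RVLM by -0.79 (SE 0.10, adjusted p 5.6e-11) in WKY and -0.65 (SE 0.08, adjusted p 6.1e-12) in SHR, and below CVLM by -0.54 (adjusted p 2.2e-06) and -0.41 (adjusted p 3.3e-06). CVLM was lower than RVLM by -0.25 (SE 0.10, adjusted p 0.0351) in WKY and -0.24 (SE 0.08, adjusted p 0.00717) in SHR, but the WKY call was lost in 7 and the SHR call in 2 of 13 alternatives. In limma voom the WKY value was not called with all rats (-0.23, adjusted p 0.0632), nor in 44 of 46 fits with 1 rat left out (-0.37 to -0.14, largest adjusted p 0.318). In SHR, leaving out replicate 1 of 8 wk, whose CVLM library stood apart, also ended it (-0.17, adjusted p 0.0643).

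Ncan and Vcan, lecticans abundant in the developing brain, had 1 call each between regions. Ncan ran in WKY rats from 9.71 to 40.8 CPM (median 25.1) in the NTS, from 9.87 to 35.0 (median 24.5) in the CVLM and from 8.07 to 50.5 (median 27.8) in the RVLM. SHRs had medians of 24.9, 20.9 and 22.6 CPM, and all ranges overlapped widely. The single call for Ncan was NTS below RVLM in WKY (-0.32, SE 0.13, adjusted p 0.0222). It was lost in 6 of 13 alternatives, among them the fit without rats that had a library standing apart. It was also lost when any of 25 single rats was left out (largest adjusted p 0.205). Vcan had medians of 11.8, 11.1 and 8.70 CPM in WKY rats and of 12.2, 10.1 and 8.91 in SHRs, in the order NTS, CVLM and RVLM. On levels scaled within a region, it was above RVLM in the NTS of 39 of 46 rats. With 1 scaling over all libraries, the fold change was called only in SHR (0.21, SE 0.09, adjusted p 0.0290). That call was lost in 5 of 13 alternatives, among them the fit without rats that had a library standing apart. It was also lost when any of 5 single SHRs was left out (largest adjusted p 0.0779). The WKY value was 0.07 (SE 0.11, adjusted p 0.640), but 0.27 (adjusted p 0.0389) with library sizes scaled to total counts. NTS against CVLM was 0.19 (SE 0.09, adjusted p 0.0548) in SHR, which 3 of 13 alternatives called, with 0.32 (adjusted p 0.00153) on total counts.

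Hapln2 and Hapln4, link proteins found at nodes of Ranvier and in the nets of the brainstem, were also lowest in the NTS. Hapln2 ran in WKY rats from 3.70 to 93.9 CPM (median 58.2) in the NTS, from 21.0 to 260 (median 108) in the CVLM and from 2.27 to 146 (median 94.3) in the RVLM. In SHRs the values were 8.19 to 145 CPM (median 65.9), 7.07 to 191 (median 96.5) and 11.1 to 157 (median 79.7). Within a region and strain the highest rat exceeded the lowest by 12.4 to 64.1 times, more than for any other member except Has3 in the NTS and in the CVLM of WKY rats. Within a rat, NTS was below CVLM in 37 of 46. NTS lay below CVLM by -1.40 (SE 0.24, adjusted p 1.3e-06) in WKY and -0.82 (SE 0.19, adjusted p 0.000123) in SHR. Against RVLM it lay at -1.12 (SE 0.25, adjusted p 5.4e-05) in WKY and -0.49 (SE 0.19, adjusted p 0.0170) in SHR, the SHR call being lost in 4 of 13 alternatives and when any of 10 single rats was left out.

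Hapln4 ran in WKY rats from 39.8 to 209 CPM (median 150) in the NTS, from 78.6 to 314 (median 226) in the CVLM and from 34.0 to 314 (median 259) in the RVLM. In SHRs it ran from 48.6 to 285 CPM (median 199.9), from 49.4 to 369 (median 290) and from 86.8 to 383 (median 264). Despite the overlap, NTS was below CVLM in 43 of 46 rats and below RVLM in 38 of 46. The log2 fold change of NTS over RVLM was -1.09 (SE 0.16, adjusted p 1.4e-08) in WKY and -0.65 (SE 0.12, adjusted p 3.7e-06) in SHR, and that of NTS over CVLM was -1.02 (SE 0.16, adjusted p 1.0e-07) and -0.68 (SE 0.12, adjusted p 2.1e-06). CVLM and RVLM were not called different (-0.07, SE 0.16, in WKY and 0.03, SE 0.12, in SHR).

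Tnr, which cross-links the lecticans, was highest in the RVLM. Its medians were 24.2, 26.0 and 32.3 CPM in WKY rats and 29.9, 27.7 and 39.1 in SHRs, in the order NTS, CVLM and RVLM, with ranges from 7.65 to 68.1 in WKY rats and from 15.1 to 57.6 in SHRs over all regions. NTS and CVLM were each below RVLM in 37 of 46 rats. CVLM lay below RVLM by -0.49 (SE 0.11, adjusted p 0.000229) in WKY and -0.39 (SE 0.09, adjusted p 6.7e-05) in SHR, and NTS by -0.44 (SE 0.11, adjusted p 0.000406) and -0.46 (SE 0.09, adjusted p 1.9e-06). With library sizes scaled to total counts alone, the WKY call of NTS against RVLM was lost (-0.24, adjusted p 0.0773). NTS and CVLM were not called different for Tnr, with 0.05 (SE 0.11) in WKY and -0.07 (SE 0.09) in SHR. Has3, one of the enzymes that make hyaluronan, stood at medians between 0.611 and 1.02 CPM in every region and strain, on 0 to 29 reads per library, and no difference between regions was called.

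Counted over the 9 genes, NTS against RVLM gave 1 higher and 6 lower in WKY, where 62.8% of the 14043 genes tested were called (30.5% higher, 32.4% lower), and 2 higher and 5 lower in SHR (65% of genes called, 32.4% higher and 32.6% lower). NTS against CVLM gave 0 higher and 5 lower in each strain, against 53.3% of genes called in WKY (27% higher, 26.2% lower) and 56.4% in SHR (29.6% higher, 26.9% lower). CVLM against RVLM gave 1 higher and 2 lower in WKY (39.2% of genes called, 19% higher and 20.1% lower) and 1 higher and 3 lower in SHR (45.3%, with 21.3% higher and 24% lower). The called members were mostly lower in both contrasts of the NTS. The median log2 fold change over the members was -0.44 in WKY and -0.46 in SHR for NTS against RVLM, where the median of all genes was -0.013 and 0.003, and -0.54 and -0.41 for NTS against CVLM, with 0.006 and 0.012 over all genes. For CVLM against RVLM it was -0.07 and 0.02, with -0.006 and -0.005 over all genes. Whether these region differences themselves differed between the strains was tested in the same fit. Of 27 such values 0 were called, against 1.94%, 0.449% and 0.335% of all genes for NTS against RVLM, NTS against CVLM and CVLM against RVLM, 2 had an unadjusted p under 0.05 (Hapln2 and Hapln4 in NTS against RVLM), and limma voom called 0.

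**Figure D1:**
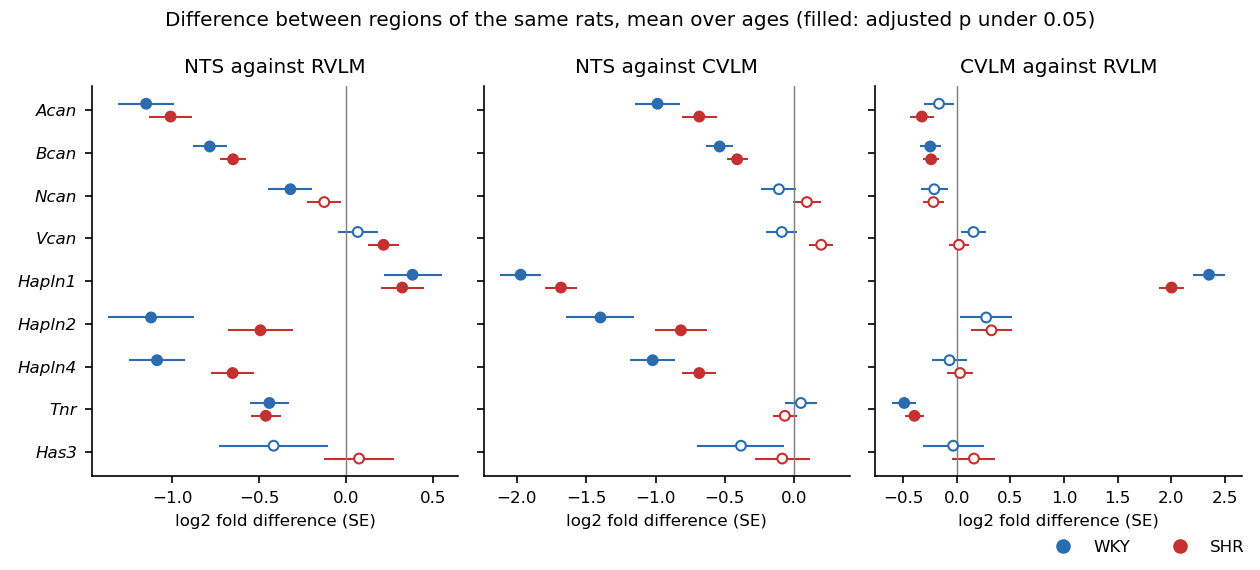
Log2 fold change between regions of the same rats for the 9 genes, as the mean over ages with its standard error, for WKY rats and SHRs. Filled symbols have an adjusted p under 0.05 and the line marks 0. Hapln1 lies near 2 in CVLM against RVLM, and Acan, Bcan, Hapln2 and Hapln4 lie below 0 in both contrasts of the NTS.

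Markers of the cell types that carry or make this matrix moved between the regions too. The shares of all genes called in these contrasts are those given above for the members. Of 10 genes of myelinating oligodendrocytes, 10 were lower in the NTS than in either other region in both strains, with median log2 fold changes against RVLM of -0.72 in WKY and -0.44 in SHR and against CVLM of -0.87 and -0.61. Their summed level ran from 20853 to 53119 CPM in the NTS, from 39262 to 75730 in the CVLM and from 32527 to 66271 in the RVLM. Of 17 genes of fast-spiking neurons, the NTS had 12 lower and 5 higher than the RVLM in both strains (medians -1.26 and -0.84). Against the CVLM, 14 were lower (medians -0.79 and -0.75). The list includes Pvalb and the potassium channel genes Kcnc1 and Kcna1. Pvalb went against the majority, with a median of 61.6 CPM over all NTS libraries and 16.8 over all RVLM libraries. Kcna1 went with it, at 44.2 and 85.9 CPM. Motor neuron genes were 7 of 7 lower in the CVLM than in the RVLM in both strains (median -3.75). Of 10 microglial genes, 8 in WKY and 9 in SHR had higher levels in NTS than RVLM. The part of these cell types in the differences of the net genes was not tested.

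Other genes of the matrix, listed by role, moved in both directions. In WKY, 62.8% of all genes were called for NTS against RVLM (30.5% higher, 32.4% lower). For NTS against CVLM it was 53.3% (27% higher, 26.2% lower). The counts of the lists were not tested against these shares. Of 15 tested relatives of the net, which include other proteoglycans, tenascins and their partners, 4 were higher and 1 lower in the NTS than in the RVLM in WKY, and 6 higher and 2 lower than in the CVLM (median 0.03 and 0.18). The extremes were Tnc, the tenascin of development and injury, at 2.28 (SE 0.17, adjusted p 4.6e-21) against RVLM and 1.88 (SE 0.16) against CVLM, and Hapln3 at -1.43 (SE 0.18) against RVLM, with Ptprz1, which also gives the proteoglycan phosphacan, at 0.57 (SE 0.06) against CVLM. Of 22 enzymes of chondroitin sulfate synthesis, 4 were higher and 8 lower in the NTS than in the RVLM (WKY), among them Csgalnact1, which starts the chain, at -0.50 (SE 0.05), B3gat3 at -0.39 (SE 0.04), Chst12 at -0.57 (SE 0.07) and the 4-O-sulfotransferase Chst11 at -1.58 (SE 0.20). Of 20 genes of matrix breakdown and its inhibitors 4 were higher and 6 lower, with Mmp3 at -2.94 (SE 0.31), Timp1 at 1.35 (SE 0.14), Adamts4, which cleaves aggrecan and brevican, at -0.74 (SE 0.09) and Adamts1 at -0.90 (SE 0.10). Receptors and factors that bind nets counted 6 higher and 4 lower of 15, with the hyaluronan receptor Cd44 at 1.23 (SE 0.11) and Sema3a, which binds to nets, at -1.43 (SE 0.15). In CVLM against RVLM, Nptx2, a pentraxin of excitatory synapses, was at 2.65 (SE 0.23) and Nrp1, the receptor of Sema3a, at -1.18 (SE 0.08).

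Between the strains, Hapln4 and Has3 were higher in the NTS of SHRs and no other member was called in any region. Hapln4 in the NTS of WKY rats was 77.3, 156, 184, 159 and 184 CPM at 8 wk, and 177, 209, 133 and 97.6 at 10 wk. Those of 12 wk had 156, 55.1 and 146, those of 16 wk 123, 154 and 178, and those of 24 wk 43.9, 130 and 39.8. In SHRs it was 107, 248, 48.6, 213 and 285 CPM at 8 wk, 185, 219.7, 209, 159 and 207 at 10 wk, 174 to 256 (median 200.3) at 12 wk, 97.1 to 241 (median 190.2) at 16 wk and 111 to 206 (median 181) at 24 wk. The SHR median was above the WKY median at every age, and the ranges of the strains overlapped at each age except 12 wk. The values of 55.1, 43.9 and 39.8 in WKY rats and 48.6 in an SHR are those of the libraries that stood apart. As a mean over ages the log2 fold change of SHR over WKY was 0.58 (SE 0.17, adjusted p 0.0144), which had an adjusted p under 0.05 in 10 of 11 other fits and with each rat left out (0.52 to 0.73). It did not reach the study's threshold, an adjusted p of at most 0.01 and a fold change of at least 2. Without the libraries that stood apart it was 0.39 (adjusted p 0.0687), so the call rests on them. In the CVLM the value was 0.26 (SE 0.14, adjusted p 0.269), in the RVLM 0.17 (SE 0.17, adjusted p 0.607), and without the libraries that stood apart the CVLM value was called (0.36, adjusted p 0.0214).

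Has3 in the NTS ran in WKY rats from 0 to 1.44 CPM (median 0.784) and in SHRs from 0.123 to 3.77 (median 1.02). The widest gap was at 10 wk, where WKY rats had 0.151, 0, 0.555 and 0 CPM and SHRs 0.592, 2.10, 1.33, 0.671 and 0.995, so that the strains did not overlap. These rested on 2, 0, 7 and 0 reads in WKY rats and 8 to 29 in SHRs, and no read allows up to 0.188 and 0.169 CPM in those libraries (3 counts, counting error only). The log2 fold change at 10 wk was 2.76 (SE 0.70, adjusted p 0.0124), 1 of 45 values by age called in the NTS, where 4.44% of all genes were called at 10 wk (2.45% higher in SHR). It was lost with each age fitted alone (adjusted p 0.0994) and without SHR replicate 2 (2.42, adjusted p 0.0584), WKY replicate 2 (2.33, adjusted p 0.0612) or WKY replicate 4 (2.29, adjusted p 0.0653). As a mean over ages it was 0.87 (SE 0.29, adjusted p 0.0384). This mean lost its call in 5 of 11 alternatives, among them the fit without the libraries that stood apart. The same held when any of 18 single rats was left out (largest adjusted p 0.0794). In libraries of number 1, which have no 10 wk rats, it was 0.24 (adjusted p 0.752).

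In all, the mean strain difference called 2 of 9 members in the NTS, both higher (11.2% of all genes called, 5.66% higher), 0 of 9 in the CVLM (12.3%) and 0 of 9 in the RVLM (10.8%). DESeq2 called 2, 1 and 0, and 2, 2 and 1 had an unadjusted p under 0.05. Taken age by age, 0 of 45 values were called in the CVLM and 0 of 45 in the RVLM by edgeR and by DESeq2, with 2 unadjusted p under 0.05 in each. The share of all genes called at the successive ages, from 8 to 24 wk, was 7.64%, 3.18%, 2.62%, 2.27% and 7.13% for the CVLM, and 9.78%, 2.3%, 1.7%, 1.65% and 2.24% for the RVLM. For the NTS it was 5.79%, 4.44%, 3.1%, 1.73% and 2.46%. The member nearest to a call in the CVLM was Tnr (0.31, SE 0.11, adjusted p 0.0651), which DESeq2 called (0.31, adjusted p 0.0494). Hapln1 in the NTS had a mean strain difference of 0.31 (SE 0.16, adjusted p 0.252) in all rats and 0.39 (adjusted p 0.109) with the library number as a term. It was 0.61 (adjusted p 0.00136) without the number-2 libraries of 8, 12 and 24 wk and 0.72 (adjusted p 0.00284) in number-1 libraries alone. At 8 wk, the number-1 WKY rats had 11.9 and 5.38 CPM of Hapln1 and the number-2 WKY rats 21.2, 38.9 and 38.8, while the SHRs, all number 1, had 19.2 to 30.7.

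Among relatives, Spock2, a proteoglycan of the testican family, was higher in SHRs by 4.32 (SE 0.08, adjusted p 2.6e-35) in the NTS, 4.45 (SE 0.08) in the CVLM and 4.47 (SE 0.09) in the RVLM on the log2 scale. Ptprz1 was higher by 0.32, 0.41 and 0.36 and the cell adhesion gene Nrcam by 0.37, 0.41 and 0.32 in the same order, and these with Tnc in the RVLM (0.57, SE 0.15) were the calls among 15, 14 and 14 relatives tested. Chst12 in the CVLM (-0.33, SE 0.08) was the only call among 20, 19 and 22 enzymes of chondroitin sulfate synthesis. Matrix breakdown had 3 higher in the NTS (Mmp2 0.37, Adamts4 0.35 and Adamts8), 2 higher in the CVLM (Timp3 0.24 and Mmp2) and 1 higher and 1 lower in the RVLM (Timp3 0.27). No receptor or bound factor of 15 was called in any region. Of all genes, 11.2%, 12.3% and 10.8% were called for this mean strain difference in the NTS, CVLM and RVLM. Of the 17 fast-spiking genes, 5 were higher in the NTS of SHRs (Kcna1 0.51, Kcna2 0.49, Kcnab3 0.42, Scn1a 0.39 and Scn4b), with a median of 0.21 over the list against 0.0097 over all genes, and of the 10 oligodendrocyte genes 3 were higher and 1 lower there. The summed level of 10 astrocyte genes had medians of 7675 CPM in SHRs and 9490 in WKY rats in the NTS, 6636 and 8314 in the CVLM, and 6583 and 8434 in the RVLM. Of these genes S100b was lower in SHRs in each region (-0.95, SE 0.04, in the NTS), Fgfr3 was higher in the NTS and Aldh1l1 in the RVLM, and the median over the list in the NTS was -0.02. Their part in the value of Hapln4 was not tested.

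With age, Hapln1 in the NTS and Tnr in the CVLM were called in both strains, and these calls were lost with the library number as a term. Hapln1 in the NTS of WKY rats was 11.9, 5.38, 21.2, 38.9 and 38.8 CPM at 8 wk and 25.6, 42.3, 19.0 and 22.2 at 10 wk, and it was 11.7, 7.31 and 9.35 at 12 wk, 11.7, 10.3 and 11.7 at 16 wk and 11.2, 7.70 and 13.3 at 24 wk. In SHRs it was 30.7, 19.2, 23.2, 29.3 and 26.3 CPM at 8 wk, 28.1, 35.3, 26.1, 29.0 and 33.6 at 10 wk, 7.68 to 27.1 (median 17.9) at 12 wk, 6.01 to 13.3 (median 10.9) at 16 wk and 11.9 to 19.4 (median 14.4) at 24 wk. Rats of 10 wk lay above those of 16 and 24 wk without overlap in each strain. A difference among ages had an adjusted p of 0.00958 in WKY and 0.00415 in SHR. With the library number as a term these became 0.889 and 0.155, and in number-1 libraries alone, which hold no 10 wk rats, 0.981 and 0.0446. For 24 against 8 wk the log2 fold change was -1.11 (SE 0.39, adjusted p 0.0908) in WKY and -0.78 (SE 0.30, adjusted p 0.490) in SHR, and neither was called.

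Tnr in the CVLM of WKY rats was 40.1, 17.6, 43.8, 40.8 and 42.2 CPM at 8 wk, then 35.8, 36, 32.3 and 32.8 at 10 wk. Rats of 12 wk had 7.65, 30.5 and 21.5, those of 16 wk 18.1, 15.1 and 19.4, and those of 24 wk 13.0, 20.4 and 17.3. In SHRs it was 41.4, 40.5, 35.0, 32.5 and 42.3 CPM at 8 wk, 37.9, 41.6, 50.3, 37.5 and 33.8 at 10 wk, 15.1 to 28.7 (median 26.0) at 12 wk, 18.3 to 32.2 (median 23.6) at 16 wk and 17.0 to 37.0 (median 23.3) at 24 wk. In SHRs, rats of 8 and 10 wk lay above all of 12 and 16 wk. The differences among ages had an adjusted p of 0.00155 in WKY and 0.00765 in SHR. With the library number as a term these became 0.368 and 0.158, and in number-1 libraries alone 0.718 and 0.396. The log2 fold change of 24 over 8 wk was -1.13 (SE 0.28, adjusted p 0.00758) in WKY and -0.67 (SE 0.22, adjusted p 0.223) in SHR, and the WKY call was lost without replicate 1 of 24 wk (-0.99, adjusted p 0.0619) and with the library number as a term (-0.77, adjusted p 0.136). With that term the SHR value was larger, at -0.79 (adjusted p 0.0539), though still not called. Bcan in the CVLM of WKY rats fell as well, from 249, 401, 316, 407 and 390 CPM at 8 wk to 164, 239 and 258 at 24 wk (-0.68, SE 0.23, adjusted p 0.0395), and leaving out any of 6 single rats (largest adjusted p 0.193) or fitting the library number (-0.61, adjusted p 0.190) ended that call.

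Counted over members and strains, any difference among ages was called in 4 of 18 values in the NTS, the others being Tnr in SHR (adjusted p 0.0373) and Has3 in WKY (adjusted p 0.0421), against 12.5% of all genes in WKY and 18.7% in SHR. The Tnr call was lost when any of 13 single rats was left out (largest adjusted p 0.131) and the Has3 call when any of 11 was (0.144). Both were also lost without the libraries that stood apart. A difference among ages was called in 2 of 18 in the CVLM (22.2% and 20% of all genes) and 0 of 18 in the RVLM (6.79% and 14.1%), where 4 had an unadjusted p under 0.05 and DESeq2 called 1. For 24 against 8 wk, 2 of 18 were called, both lower, in the CVLM of WKY rats, where 13.7% of all genes were called in WKY (4.51% lower) and 0.649% in SHR, and 0 of 18 in the NTS (0.464% and 0.232%) and the RVLM (0.179% and 0.358%), with 8 and 1 unadjusted p under 0.05 and 2 and 0 calls by DESeq2. A strain by age interaction was called for 0 of 27 member values, with 1 unadjusted p under 0.05 (Has3 in the NTS) and 0 calls by DESeq2, against 0.0145%, 0.0224% and 0.00746% of all genes in the NTS, CVLM and RVLM. The library number moved with these ages. With it as a term in the fit, 0 of 18 differences among ages were called in the NTS and 0 in the CVLM, and in number-1 libraries alone 1 and 0 were called. Oligodendrocyte genes were lower at 24 than at 8 wk too, with 6 of 10 called lower in the CVLM of each strain and 5 of 10 in the NTS of SHRs, and 5 of 10 microglial genes were higher in the CVLM of WKY rats. Their part in the age differences was not tested.

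**Figure D2:**
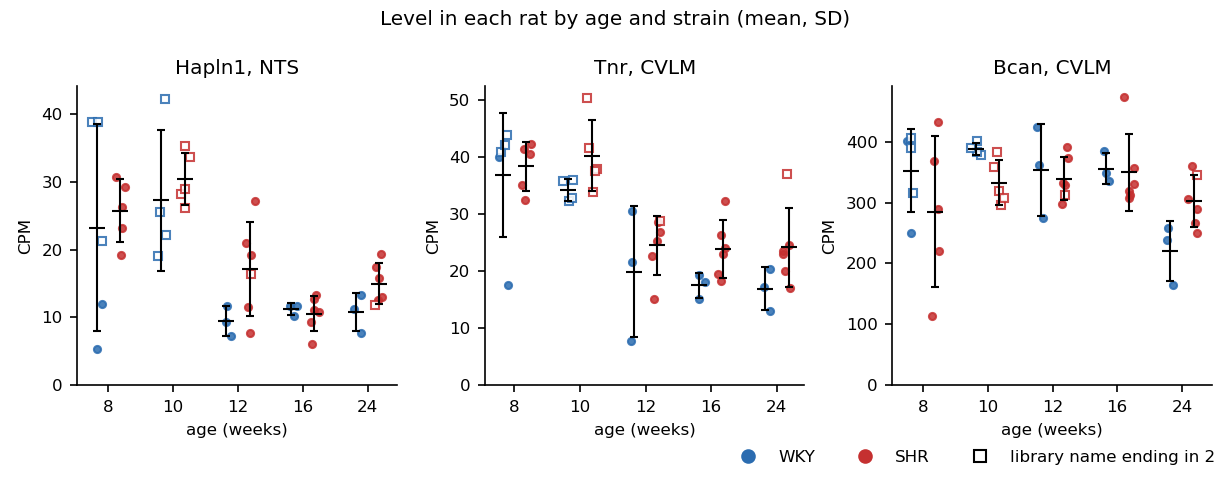
Levels of Hapln1 in the NTS and of Tnr and Bcan in the CVLM by age in weeks (CPM, linear axis from 0), 1 point per rat, WKY rats beside SHRs. Open squares are libraries whose name ends in 2, which hold all rats of 10 wk, and the 3 WKY rats of 8 wk with the highest Hapln1 (21.2 to 38.9 CPM) are open squares.

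From rat to rat, with the mean of each strain and age group removed, Bcan, Hapln2 and Hapln4 rose and fell together in all 3 regions. For Bcan and Hapln4, Pearson's r over 46 rats was 0.90, 0.92 and 0.93 for the NTS, CVLM and RVLM (Spearman's rho 0.82, 0.84 and 0.90). For Hapln2 and Hapln4, it was 0.91, 0.89 and 0.88 (rho 0.84, 0.77 and 0.81). The neighbouring genes Bcan and Hapln2 gave 0.86, 0.87 and 0.86 (rho 0.76, 0.79 and 0.77). Each of these 9 values had an adjusted p of 9e-05 over 108 relations, which is that of a permutation p at the smallest value 100000 permutations can give. Leaving out the 2 rats farthest from the median left them between 0.76 and 0.89, and leaving out the libraries that stood apart between 0.74 and 0.92.

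The 108 relations are the 36 pairs of members in each region. By the permutation test, 23 had an adjusted p under 0.05, 21 positive and 2 negative. The share of such relations among pairs of other genes was not computed, so the count cannot be read as a trait of net genes. Genes outside the members could follow them at least as closely, such as Fam98c for Hapln2 (mean r over the regions 0.96) and Tmem250 for Hapln4 (0.94). Ncan joined Bcan, with r of 0.70 in the NTS (rho 0.68, adjusted p 9e-05), 0.58 in the CVLM (rho 0.46, adjusted p 0.0273) and 0.72 in the RVLM (rho 0.76, adjusted p 9e-05). The CVLM value rested on the 2 farthest rats, without which r was 0.39 (adjusted p 0.164). The neighbours Ncan and Hapln4 gave r of 0.54 in the NTS (rho 0.49, adjusted p 0.0257), 0.56 in the CVLM (rho 0.36, adjusted p 0.063) and 0.68 in the RVLM (rho 0.67, adjusted p 9e-05), and the NTS value no longer passed without the 2 farthest rats (0.45, adjusted p 0.0769) or the libraries that stood apart (0.35, adjusted p 0.109). The neighbours Vcan and Hapln1 gave 0.31, 0.50 and 0.26, and only the CVLM value passed (rho 0.50, adjusted p 0.0395). It did not without the 2 farthest rats (0.40, adjusted p 0.113) or the libraries that stood apart (0.36, adjusted p 0.170).

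Tnr went with other partners. In the CVLM it followed Hapln1 (r 0.69, rho 0.59, adjusted p 0.000831, and 0.56 without the 2 farthest rats, adjusted p 0.0156), whereas that pair gave 0.35 in the NTS and 0.11 in the RVLM. With Vcan it gave r of 0.60 in the NTS (rho 0.46, adjusted p 0.0263), 0.63 in the CVLM (rho 0.45, adjusted p 0.0273) and 0.18 in the RVLM. The NTS value held without the 2 farthest rats (0.59, adjusted p 0.00694) and the CVLM value did not (0.48, adjusted p 0.0634). Without the libraries that stood apart, the NTS value was 0.59 (adjusted p 0.0446) and the CVLM value 0.39 (adjusted p 0.103). The negative relations were Hapln1 with Hapln2 in the CVLM (r -0.55, rho -0.57, adjusted p 0.00108, and -0.48 without the 2 farthest rats, adjusted p 0.0036) and Hapln2 with Tnr in the RVLM (r -0.37, rho -0.45, adjusted p 0.0314), the latter not without the 2 farthest rats (-0.32, adjusted p 0.114). Without the libraries that stood apart they were -0.51 (adjusted p 0.0104) and -0.36 (adjusted p 0.115). All points of a region come from each rat's own punches of the same site, and levels are relative to library size. The part of either in these relations was not tested.

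**Figure D3:**
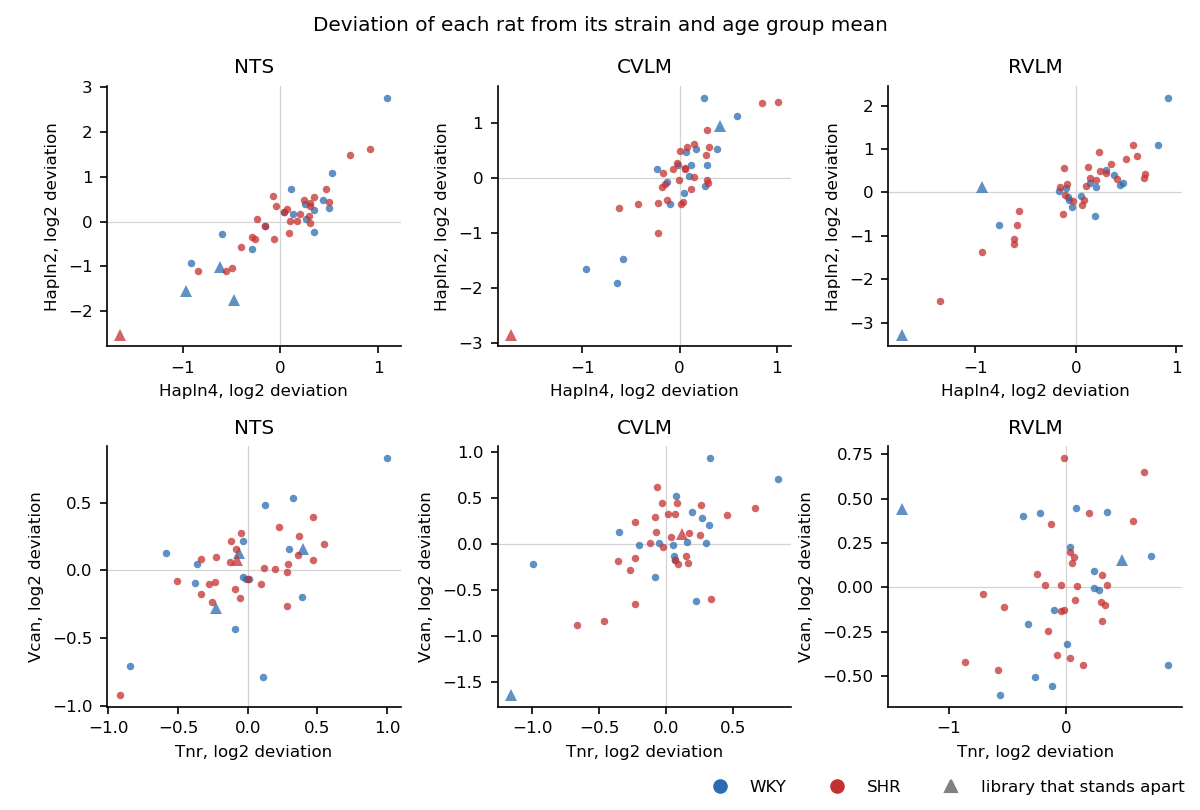
Deviations of log2 CPM from the mean of each strain and age group, 1 point per rat, for Hapln4 against Hapln2 and for Tnr against Vcan in the NTS, CVLM and RVLM. Triangles are libraries that stand apart. Hapln4 and Hapln2 lie along a line in each region (r 0.91, 0.89 and 0.88), Tnr and Vcan loosely so (r 0.60, 0.63 and 0.18).

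The same deviations were set against the mean of marker lists, as a description over 46 rats. Hapln2 gave r of 0.56, 0.62 and 0.60 with 9 genes of oligodendrocyte precursors in the NTS, CVLM and RVLM and -0.10, -0.12 and -0.38 with 10 genes of myelinating oligodendrocytes. Hapln4 gave 0.60, 0.57 and 0.56 with the 17 fast-spiking genes, and Bcan 0.49, 0.48 and 0.62. With the precursor genes Bcan gave 0.69, 0.54 and 0.60 and Hapln4 0.65, 0.46 and 0.57. With the enzymes of chondroitin sulfate synthesis Bcan gave 0.68, 0.65 and 0.74, Hapln4 0.58, 0.68 and 0.80 and Hapln2 0.41, 0.43 and 0.58. In the NTS, Ncan gave 0.78 with these enzymes. Other lists also went with Bcan and Hapln4 in the NTS, at 0.55 and 0.54 for matrix breakdown and 0.58 and 0.53 for receptors and bound factors. Tnr gave 0.69, 0.30 and 0.62 with 10 astrocyte genes, and Vcan 0.52, 0.44 and 0.32. Hapln1 gave 0.65, -0.13 and 0.51 with the oligodendrocyte genes and -0.02, -0.60 and -0.05 with 10 microglial genes. Whether these differ between regions was not tested. Acan stayed between 0.21 and 0.33 with the fast-spiking genes, and Has3 between 0.01 and 0.08.

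Over all 13115 other genes tested in every region, the genes whose deviations were most like those of a member were named by the mean of r over the regions. For Acan they were Kcna1, a potassium channel subunit (0.52), Pcyt1b (0.50) and Slc16a6 (0.48). For Bcan they were Rabl6 (0.93), Adam15 (0.92) and Hapln4 (0.92), and for Hapln4 they included Tmem250 (0.94) and Rabl6 (0.92). Hapln2 was matched most closely of the 9 genes, by S1pr5, a sphingosine-1-phosphate receptor gene (0.97), Fam98c (0.96) and F8a1 (0.96). Ncan went with Ptprs (0.85), a receptor for chondroitin sulfate, Efr3b (0.84) and Gtf2i (0.83), and Vcan with the transcription factor gene Sp1 (0.74), Macf1 (0.71) and Pds5b (0.71). For Hapln1 the nearest were Slc17a6, the vesicular glutamate transporter of brainstem neurons (0.76), Asah2 (0.75) and Sptssb (0.74). For Tnr they were the integrin gene Itgb8 (0.87), Cntn1 (0.85), which encodes the adhesion protein contactin-1, and Exoc4 (0.84). Has3, which had few reads, had no close match, with Pnisr at 0.45.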

How the data were processed

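RNA was sequenced from tissue punches of 3 brainstem regions of 46 rats. The authors mapped reads to the rat genome rn6 with STAR within RSEM, and the deposited expected counts per gene are not normalized. The authors' methods name an adjustment of batches with ComBat_seq, and whether the tables hold it is not stated. In 2 CVLM libraries the title gives 8 wk and the age label 10 wk, and they were kept at 8 wk. The 9 genes and all lists were chosen with earlier results of these data known.

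Expected counts were rounded. Genes with a largest rlog value (DESeq2 1.42.0) of at least 3.5 were kept (13411 for the RVLM, 13408 for the CVLM and 13793 for the NTS). In R 4.3.3 with edgeR 4.0.16, counts were scaled with TMM, and 1 quasi-likelihood model with 10 groups of strain and age was fitted per region (glmQLFit, robust). Regions were compared over 14043 genes with the rat as a block in glmQLFit alone, without estimateDisp. Benjamini-Hochberg adjustment covered all genes of a contrast, and an adjusted p under 0.05 was called. Levels, and counts of rats by region, rest on CPM scaled within a region, whereas fold changes between regions used 1 TMM scaling over all 138 libraries. Correlations used log2 CPM (prior count 0.5) with group means removed and 100000 two-sided permutations of rats within groups, adjusted over 108. All genes named are members, the leading 4 genes of a list by adjusted p, or the 3 most alike to a member (1 of them is not reported here), and others were chosen after their values were seen. Scripts were checked on simulated counts, and no library repeated another (270 pairs, lowest chi-square per gene 5.07). Alternatives used limma 3.58.1 and sva 3.50.0.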

Additional observations from a re-analysis of the deposited data

Results flagged for a closer look

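In 10 of the 189 groups of 4 to 6 rats, 1 rat lay far from the others of its group by Dixon's criterion, which is 5.29% of groups where chance gives about 1 in 20, and 7 of these rats were high and 3 low. Among the lecticans, Acan was low in the NTS of WKY replicate 5 at 8 wk (2.04 CPM against 3.12 to 3.30 in the others) and high in the RVLM of SHR replicate 3 at 10 wk (5.64 against 3.06 to 3.54), and Bcan was high in the CVLM of SHR replicate 4 at 16 wk (474 against 307 to 357). Vcan was high in the RVLM of SHR replicate 6 at 12 wk (14.5 against 6.90 to 9.72) and of SHR replicate 6 at 24 wk (16.8 against 7.68 to 10.7). Hapln1 was high in the CVLM of SHR replicate 1 at 8 wk (75.3 against 48.6 to 54.8), whose library stood apart, and of SHR replicate 2 at 16 wk (61.9 against 30.7 to 39.0). Hapln4 was low in the NTS of WKY replicate 1 at 8 wk (77.3 against 156 to 184), Tnr low in the CVLM of WKY replicate 2 at 8 wk (17.6 against 40.1 to 43.8), and Has3 high in the CVLM of SHR replicate 2 at 10 wk (1.40 against 0.547 to 0.743). The cause of these values was not tested.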

How the results depend on the processing

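Counts of calls over the member values were recomputed under each alternative. Each called value was also followed, over 520 combinations of a value with another setting and 1932 of a value with a rat left out. Of these, 447 and 1751 kept the call. No called fold change turned its direction, whereas the tests for any difference among ages have no direction to turn. The 31 calls between regions stayed within 1.5 times, at 26 without the rat as a block, 30 in limma voom and 27 to 32 with 1 rat left out (in limma voom), and the strain difference between regions stayed at 0. The 23 correlations became 29 with total counts in place of TMM, 21 without 2 rats and 22 without the libraries that stood apart. The number in the sample's title was checked as a possible pairing of the rats of the strains. Same-numbered rats had a median correlation of deviations of 0.195, 0.149 and 0.039 for the NTS, CVLM and RVLM. Rats of other numbers had -0.028, -0.036 and -0.020. The correlation was over 0.1 in 11, 13 and 7 of 18 same-numbered pairs, and 7, 9 and 4 of 18 WKY rats went best with their own number. Whether the number stands for a pairing was not settled. With that number and age as a replicate block, the mean strain difference had 1 call in the NTS in place of 2, that at each age 0 in place of 1, and the CVLM mean 1 in place of 0 (Has3, 0.83, adjusted p 0.0266). Ages within a strain could not be fitted under the block, which holds rats of 1 age.

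The mean strain difference in the NTS (2 calls) gave 0 at the study's threshold (adjusted p of at most 0.01 and a fold change of at least 2), 1 with no filter, 0 without the libraries that stood apart, an alternative added after seeing the data, and 1 to 3 with 1 rat left out. At each age (1 call) the NTS gave 0 at the study's threshold, 2 with DESeq2, 2 without number-2 libraries outside 10 wk, 4 with 2 surrogate variables (added after seeing the data), 0 with each age fitted alone and 0 to 4 with 1 rat left out. The CVLM mean (0 calls) gave 1 with DESeq2, 1 with total counts, 1 with the library number as a term, 2 with surrogate variables, 1 without the libraries that stood apart and 0 to 1 with 1 rat left out, and the RVLM mean (0 calls) gave 1 with surrogate variables.

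Any difference among ages in the NTS (4 calls) gave 2 with no filter, 0 with the library number as a term, 2 with surrogate variables, 1 in number-1 libraries alone (added after seeing the data), 2 without the libraries that stood apart and 3 to 7 with 1 rat left out. In the CVLM (2 calls) it gave 4 with DESeq2, 0 with the library number, 5 with surrogate variables, 0 in number-1 libraries alone and 2 to 4 with 1 rat left out. In the RVLM (0 calls) it gave 1 with DESeq2, 2 without number-2 libraries outside 10 wk, 2 with surrogate variables, 2 without the libraries that stood apart and 0 to 2 with 1 rat left out. For 24 against 8 wk, the CVLM (2 calls) gave 0 with the library number, 0 without number-2 libraries outside 10 wk, 1 without the libraries with conflicting age labels, 0 in number-1 libraries alone and 0 to 2 with 1 rat left out. The NTS (0 calls) gave 2 with DESeq2 and 0 to 4 with 1 rat left out, and the RVLM (0 calls) 1 with surrogate variables. The cause of these changes was not tested. Calls by age and strain rest on 3 to 6 rats per group, and Has3 and Acan on few reads.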

Other observations

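In the CVLM of WKY rats, other genes of the matrix than Tnr and Bcan also differed between 24 and 8 wk, and they are named after their values were seen. Of all genes, 13.7% were called in this contrast (4.51% lower). The calls of Tnr and Bcan were lost with the library number as a term, and the other genes were not fitted with it. At 8 wk, 3 of 5 WKY rats were of number 2, and all WKY rats of 24 wk were of number 1. Of 19 enzymes of chondroitin sulfate synthesis 3 were lower, the 6-O-sulfotransferase gene Chst3 by -1.30 (SE 0.36, adjusted p 0.0151), Chsy3 by -1.07 (SE 0.36, adjusted p 0.0410) and Csgalnact2 by -0.52 (SE 0.18, adjusted p 0.0487). Of 18 genes of matrix breakdown only Adamts4 was called (-0.95, SE 0.19, adjusted p 0.00179), and of 15 receptors and bound factors only Itgb1 (-0.60, SE 0.12, adjusted p 0.00255). Of the 17 fast-spiking genes Pvalb (1.01, SE 0.23, adjusted p 0.00441), Kcna1 (0.59, SE 0.16, adjusted p 0.0133) and Spp1 (0.64, SE 0.21, adjusted p 0.0358) were higher and Kcnc4 (-0.67, SE 0.23, adjusted p 0.0428) lower.

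In the NTS, 1 WKY library had a summed level of 7 choroid plexus genes of 4598 CPM, where the median of WKY libraries was 8.25 and the highest SHR library had 11.8. In the CVLM, where 3 of these genes were tested, the highest WKY library had 189 CPM. The WKY median there was 2.66 and the highest SHR library had 6.83. Choroid plexus lies on the wall of the fourth ventricle next to the NTS, and its part in the levels of these punches was not tested.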
